A study of Rattus norvegicus with 32 samples.

Results

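Cytosolic ribosomal proteins build the small and the large subunit of the ribosome that translates nuclear mRNAs. Each is made in step with the others, and their mRNAs are among the most abundant of a cell. Most of these mRNAs begin with a short run of pyrimidines, the 5′ terminal oligopyrimidine tract, through which the growth kinase mTOR and the RNA-binding protein Larp1 set how much of each mRNA is translated. In the mammary gland, demand for protein synthesis follows epithelial growth and, later, milk production. The transcripts of this family were followed here through the estrous cycle of virgin rats.

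The genes were chosen by name. A probe set, the group of short oligonucleotides with which the array reads a transcript, was taken where the platform annotation gave it a single symbol that starts with Rpl or Rps and a digit, or Rplp0, Rplp1, Rplp2 or Rpsa. The Rps6k kinases were left out. An intensity of at least 10 was required on all 31 arrays used, and a gene was represented by its probe set of highest mean log2 intensity. By these rules 57 probe sets of 50 genes were candidates, 52 probe sets passed the filter, and 46 genes remained, of 11211 genes with a single symbol among the 21068 probe sets tested. Large-subunit names accounted for 31 of the 46 genes and small-subunit names for 15. The 4 genes without a passing probe set were Rpl30, Rpl39l1, Rpl3l and the pseudogene Rps4x-ps1. The nearest of them to the limit was Rpl39l1, a copy of Rpl39, with intensities from 9.83 to 12.4, while the lowest value of a gene that was kept was 22.4, for Rps27l. A further 33 probe sets carried several ribosomal symbols at once, usually a gene and its copies, and are described separately. Only 1 of the 46 genes (Rpsa) was read by a probe set of the kind that can share probes between genes. A further 2 (Rps24 and Rpl13a) were read by the kind that shares probes between transcripts of 1 gene. Most values thus belong to the named gene as far as the platform annotation goes.

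Every array held RNA of the mammary gland of 1 untreated adult virgin Sprague-Dawley rat, killed at a known hour of the 4-day cycle, with no repeat of any time point. The arrays used fell on day 1 (n = 8, 7 to 17.6 h), day 2 (n = 8, 31.6 to 43 h), day 3 (n = 8, 57 to 67.1 h) and day 4 (n = 7, 79.3 to 88.1 h). The array of 40 h, which the study set aside, entered the tests only in an alternative with all 32 arrays. Array medians ran from 49.9 to 54.7. Defining transcripts of gland and stroma were present on every array used. Krt18, a luminal keratin, ran from 2359.8 to 4747.1, and Adipoq, an adipocyte hormone, from 3206.4 to 7843.8. The skeletal muscle markers varied most, with array means from -4.31 to 2.41 on the log2 scale around their overall mean, and the lymphocyte markers ranged from -0.58 to 2.30. The RNA is that of whole tissue, so fewer cells of a type and less RNA per cell cannot be told apart.

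The start of the transcript is where the family carries its shared control element, so windows of 30 bases around the RefSeq start were read for 39 of the 46 genes from build GRCr8, from 10 bases before the start onward. The tract was searched on the gene's own strand as a C followed by at least 4 bases that were each C or T. It was found in the window of 22 of 32 bright genes (68.8%) and 5 of 7 dim genes (71.4%), against 33.5% of 27457 RefSeq promoters. With the annotated start base itself a C followed by at least 4 bases that were each C or T, it was found in 9 bright genes (28.1%) and 2 dim genes (28.6%), against 2.63% of all promoters. Bright and dim refer to the intensity groups described next. The genes shown are a selection, some of which the later results turn on. The tract is in capitals wherever in the window it matched. Rps24 (chr16:96507-96536, plus strand), Rpl13a (chr1:104748894-104748923, minus strand), Rpl19 (chr10:83519054-83519083, plus strand), Rplp0 (chr12:46718371-46718400, minus strand) and Rpl35a (chr11:81235002-81235031, minus strand) held it. Rpl26 (chr10:54109682-54109711, plus strand), Rpl24 (chr11:58128386-58128415, minus strand) and the paralog Rpl26l1 (chr10:17029009-17029038, minus strand) had no match in this window.
Rps24: ggtCCTCTTTTCCTCCTTTacagctcgggc
Rpl13a: tCCTTTCCTaggcggctgccgaagatggcg
Rpl19: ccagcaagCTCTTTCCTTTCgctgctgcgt
Rplp0: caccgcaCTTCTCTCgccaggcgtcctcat
Rpl35a: tcttgCCTTCCTCTTTCCgccatcttggcg
Rpl26: gtcaacttacagaaccggaagtcgcatgta
Rpl24: tagggaggagattctctaccctataaggtg
Rpl26l1: tcatttccgggcctgcgcacacaccaccgg
In Rpl19, Rplp0 and Rpl35a the annotated start base was a C of the tract. In Rps24 the start base was a T inside the match, and in Rpl13a the match ended before the start. A match is a string of letters in this window, and the start of a transcript in the gland was not measured.

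The intensities fell into 2 groups with nothing between them. The probe sets of 38 genes had mean log2 intensities from 13.03 to 14.80 and are called bright here. Those of the other 8, called dim, lay between 4.94 and 9.50. The intensity of a probe set depends on its own oligonucleotides and does not rank the genes by amount of mRNA. The brightest were Rps29 and Rpl26, followed by Rpl3, Rps3a and Rps24, all core subunits. Rps29, a small-subunit protein, ran from 24528 over a median of 28084 to 29681 on day 1, from 26838 over 28803 to 29971 on day 2, from 27719 over 29047 to 29899 on day 3 and from 26420 over 28522 to 29789 on day 4. The 4 days overlapped almost wholly. Rpl26, a large-subunit protein near the exit tunnel, ran from 23728 to 28286 over all 31 arrays. The dimmest were Rpl26l1, Rps13, Rpl28, Rpl37-ps2 and Rps27l. Rpl26l1 and Rps27l are paralogs of Rpl26 and Rps27, and Rpl37-ps2 is a transcribed pseudogene. Rps13 and Rpl28 are core genes whose brighter probe sets carried several symbols and were therefore not counted among the 46.

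**Figure D1:**
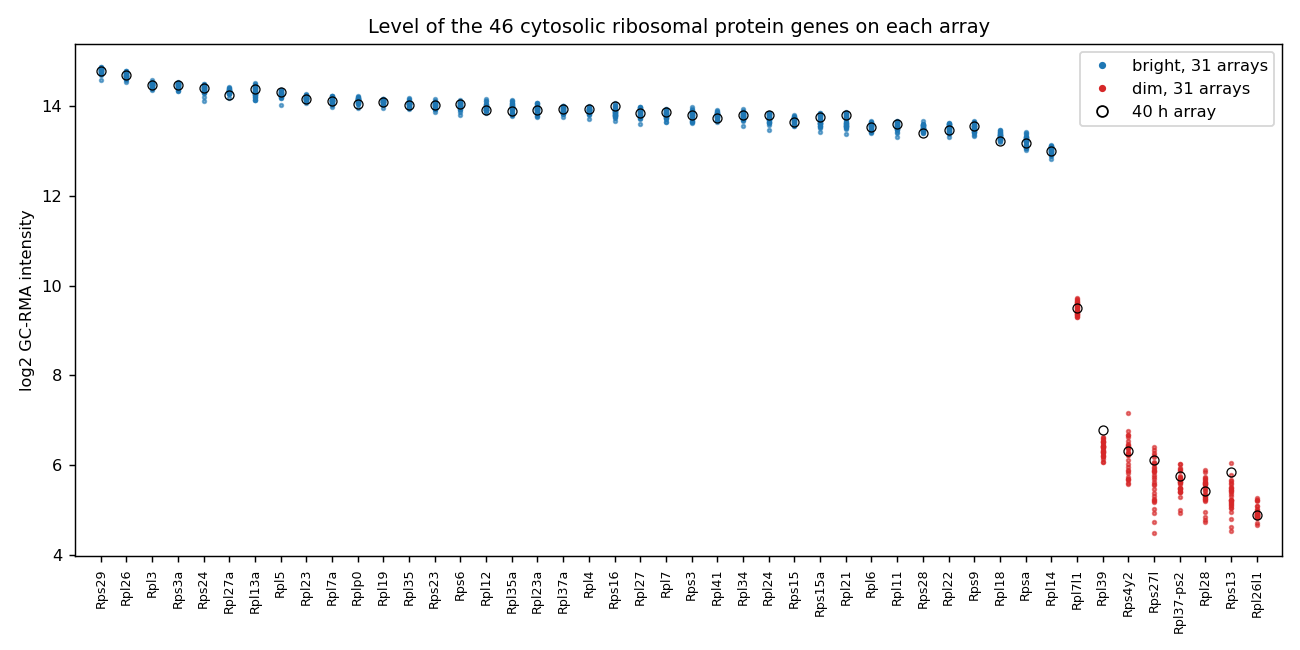
Log2 intensity of each of the 46 genes on each array, ordered by mean, with bright genes in blue, dim genes in red and the 40 h array as open circles. The 38 bright genes sit between 13.03 and 14.80 on average with little scatter, and the 8 dim genes lie at 9.50 or below with wider scatter.

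Across the cycle the intensities of the bright probe sets were nearly constant. Their SD over the 31 arrays had a median of 0.071 on the log2 scale, with a range from 0.044 (Rpl23) to 0.128 (Rpl21). The median over all 21068 probe sets was 0.235, and 0.237% of them had an SD below the median of the bright genes. Level matters for this comparison, since spread falls with intensity. The choice of the brightest probe set matters too. Dimmer probe sets had an SD of 0.216 for Rps24 against 0.080, 0.207 for Rpl3 against 0.045, and 0.536 for Rpl7 against 0.079. The dimmer ones of Rpsa had 0.262 and 0.078 against 0.100. The small spread is thus that of the probe sets used. At a mean log2 of at least 13.03 there were 149 probe sets, 69 of them ribosomal by symbol, and the other 80 had a median SD of 0.133. This is a floor and not a match of level, since the median of the mean log2 was 13.65 for the 80 and 13.91 for the bright genes. All 38 bright genes lay below that median, and 6 of the 80 lay below the median of the bright genes. These are descriptions of the lists, and no test of the difference was made.

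The steadiest genes were all core subunits. Rpl23 ran from 17207 over a median of 18451 to 19638 on day 1, from 18211 over 18581 to 19574 on day 2, from 17858 over 18506 to 19851 on day 3 and from 18032 over 18596 to 19504 on day 4. Its highest array was 1.15-fold its lowest. Rpl3, a protein at the peptidyl transferase centre, spanned 1.16-fold, Rpl19 1.16-fold, Rpl27a 1.18-fold and Rps3a 1.16-fold. Among the bright genes the widest was Rpl21, which spanned 1.41-fold, from 10704 at 17.6 h to 15086 at 10 h. The bright genes of the large subunit (n = 26) and of the small subunit (n = 12) had median SDs of 0.069 and 0.075. The probe sets of several ribosomal symbols had a median SD of 0.089 (n = 33). For the mitochondrial ribosomal proteins, which serve the separate ribosome of that organelle, it was 0.179 (n = 73), and for the ribosome biogenesis factors 0.193 (n = 75). A list of translation factors and related mRNAs, in which the tract was not searched, had 0.134 (n = 32).

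**Figure D2:**
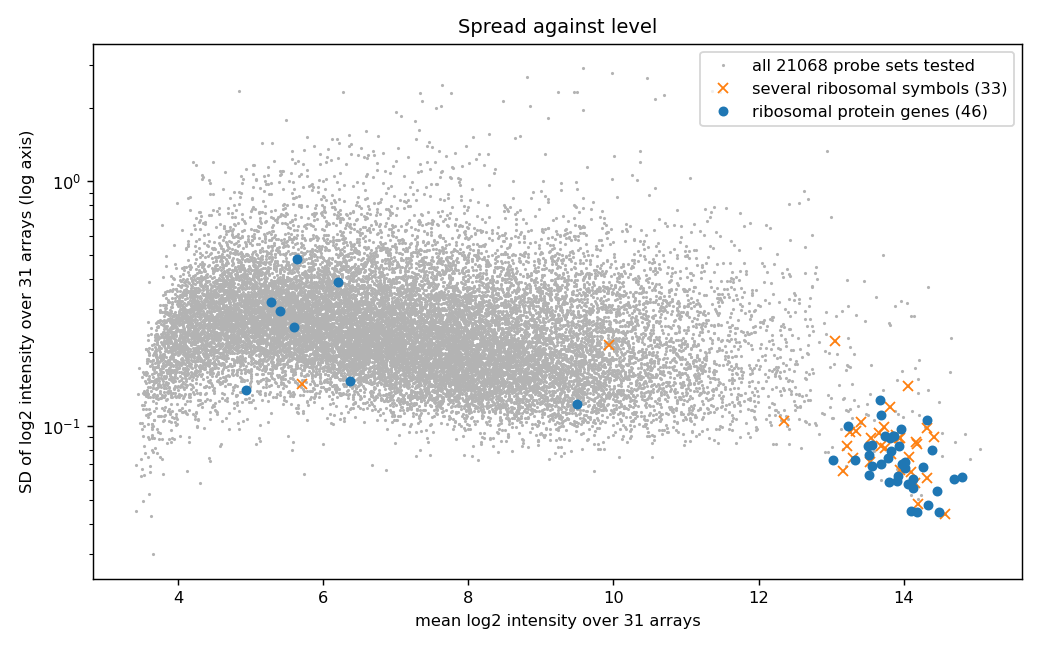
SD of log2 intensity over the 31 arrays, on a log axis, against mean log2 intensity for 21068 probe sets (grey), the 46 ribosomal protein genes (blue) and 33 probe sets of several ribosomal symbols (orange crosses). The bright genes sit at the lower right, with a median SD of 0.071, and the dim genes lie within the cloud.

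None of the 46 genes passed the test for a change with the clock hour. In the limma model, which holds a level for each day of the cycle and 1 slope along the clock hour, 0 of 46 were higher and 0 were lower at later hours at an adjusted p of 0.05, where 1.21% of all probe sets were higher and 0.75% lower. At shares this low, counts of 0 do not set the family apart. At an unadjusted p of 0.05 the count of members was also 0, against 12.6% of all probe sets. Among the bright genes the change over 10 h had a median of -0.02 on the log2 scale, negative in 29 and positive in 9. These genes share arrays, so the counts are a description. The 80 other probe sets as bright also had a median of -0.02. The member nearest to passing was Rpl13a, a large-subunit protein, with a change of -0.10 (standard error, SE, 0.06, limma adjusted p = 0.515). Over all bright genes, the 95% intervals reached at most 15.1% lower over 10 h (Rpl21) and 10.9% higher (Rpl18). The same rats showed the clock itself plainly, since 15 of 16 measured clock genes passed, among them Bmal1 with a change of -3.80 (adjusted p = 2.99e-11 from limma).

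limma draws the SD of each probe set toward a common value, which widens the intervals of genes as steady as these. The residual SD of the 46 genes had a median of 0.077, and the moderated SD used in the test one of 0.101. When the same model was fitted without this step, an alternative chosen after the values were seen, 0 members passed any of the 5 comparisons after adjustment over all probe sets. Unadjusted, 1 member fell under 0.05 for the clock hour (Rpl7, a large-subunit protein) against 12.6% of all probe sets. For the cycle day it was 0 against 10.6%.

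No gene of the family passed a test between the days of the cycle. The F test over the 4 days called 0 of 46 (0.574% of all probe sets), any of the 6 pairs of days called 0 of 46 (1.27%), and the test of a clock slope that differs between days called 0 of 46 (0.00475%). Counts of 0 of 46 are near shares this low and do not set the family apart. Unadjusted, no member fell under 0.05 in the F test, against 10.9% of all probe sets, or in the test of the slope by day, against 3.56%. For day 3 minus day 1, the pair with the most probe sets under an unadjusted p of 0.05 (13.8%), the changes of the bright genes ran from -0.06 to 0.10 on the log2 scale, and the 95% intervals reached at most 11.4% lower (Rps16) and 15.2% higher (Rps24).

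Rps24, a small-subunit protein, had the highest estimate for day 3 minus day 1 among the 46. It ran from 17884 over a median of 21248 to 22162 on day 1, from 20353 over 21388 to 23133 on day 2, from 21878 over 22076 to 22777 on day 3 and from 18945 over 21355 to 22999 on day 4. The day 3 rats were close together near the upper end of the range of day 1, and the days overlapped. Day 3 minus day 1 was 0.10 (SE 0.05, limma adjusted p = 0.381). The next were Rpl28 at 0.10, on a dim probe set, and Rpl27 at 0.09, and the lowest were Rps13 at -0.27, Rpl37-ps2 and Rps16, the last at -0.06. None of them passed. The second probe set of Rps24, a dimmer one with a mean log2 of 8.60, gave -0.13 for day 3 minus day 1. The direction for Rps24 thus differed between its probe sets.

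**Figure D3:**
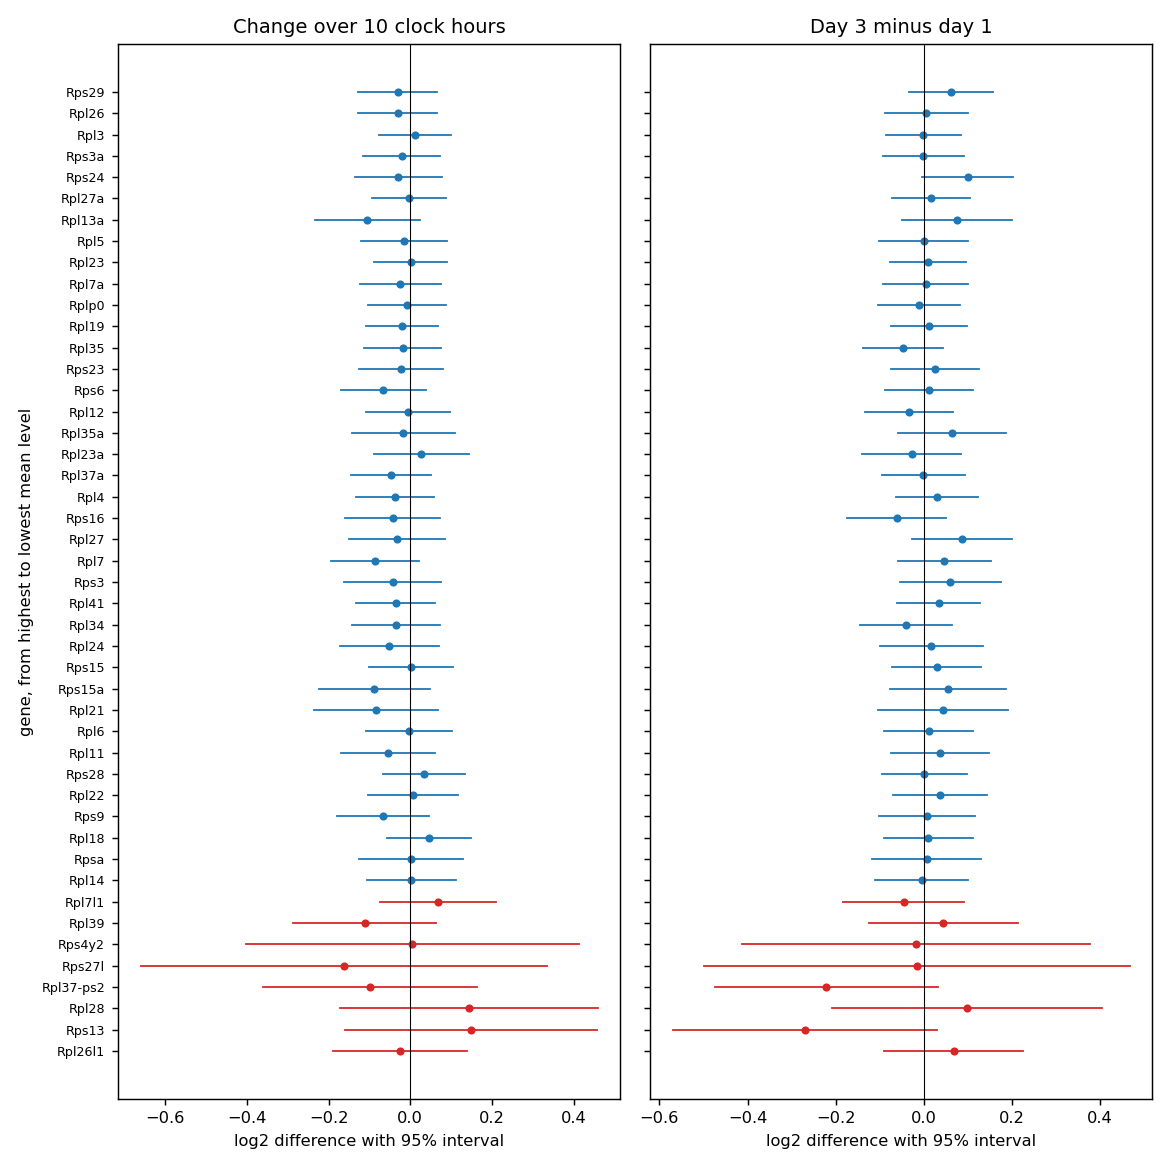
Log2 change over 10 clock hours (left) and between day 3 and day 1 (right) for the 46 genes, ordered by mean intensity, with points for limma estimates and bars for 95% intervals over 31 arrays, bright genes in blue and dim genes in red. Every interval crosses 0, and those of the bright genes stay between -0.24 and 0.20.

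The study's own approach, Method 1, which takes the share of a profile's variance that a smooth spline over the cycle explains (rho) and sets it against permuted data, gave the same count. It called 0 of 46 at a false discovery rate of 0.25, where it called 9.06% of all probe sets. The rho of the 46 genes had a median of 0.193 and ran from 0.068 to 0.406, with a median of 0.248 over all probe sets and of 0.219 in permuted data. The lowest rho of any call was 0.447. Rps24 came closest with a rho of 0.406 (adjusted p = 0.356 by the permutation of Method 1), followed by Rpl18 at 0.359 and Rpl7l1 at 0.343. The call depended on single rats in a few cases: Rps24 was called without the rat of 14.6, 34.5, 82.5 or 86.3 h, and Rpl4 without the rat of 79.3 h.

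What variation there was, the bright genes shared in part. Over the 31 arrays the median correlation between pairs of them was 0.458, and 95.4% of 703 pairs were positive. The pairs share arrays and a normalization, and the figure is a description. It was 0.351 without the array of 17.6 h. The median was 0.009 over all probe sets, 0.216 among the 80 other probe sets as bright, 0.544 among the probe sets of several ribosomal symbols and 0.542 among the mitochondrial ribosomal proteins. The first principal component of the 38 genes held 49.5% of their variance and the second 17.1%.

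The shared part showed no difference between days or between morning and afternoon beyond the spread between rats. The mean of the bright genes around each gene's own mean was, on the log2 scale and as mean ± SD over rats, -0.011 ± 0.073 for day 1 (n = 8), 0.002 ± 0.036 for day 2 (n = 8), 0.002 ± 0.046 for day 3 (n = 8) and 0.009 ± 0.044 for day 4 (n = 7). It was 0.011 ± 0.043 (SD, n = 14) before noon and -0.009 ± 0.054 (SD, n = 17) after noon. The largest of these differences was smaller than the smallest of these SDs. The means of the single arrays ran from -0.162 at 17.6 h and -0.078 at 31.6 h to 0.060 at 62.5 h and 0.067 at 57 h.

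The array of 17.6 h stood apart from the rest in the deposited values. All 38 bright genes lay below their own mean there, and it was the lowest of the 31 arrays for 26 of them. The farthest down were Rpl21 at -0.28, Rps24 at -0.26, Rps15a at -0.26, Rpl27 at -0.25 and Rpl5, a carrier of 5S rRNA, at -0.24. The least affected were Rpl14 at -0.04, Rpl24 at -0.04, Rpl18 at -0.07, Rpl35 at -0.10 and Rps28 at -0.11. The shift was not limited to the family: the mean of the 80 other bright probe sets was -0.26 there and that of all probe sets -0.07. After quantile normalization, which forces the same distribution of intensities on every array, the direction turned, with a mean of 0.05 for the bright genes and 8 of 38 below their own mean. Centring each array on its median left a mean of -0.11 and 36 of 38 below. The endothelial markers were at their lowest there, at -0.42, and their part in the result was not tested.

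**Figure D4:**
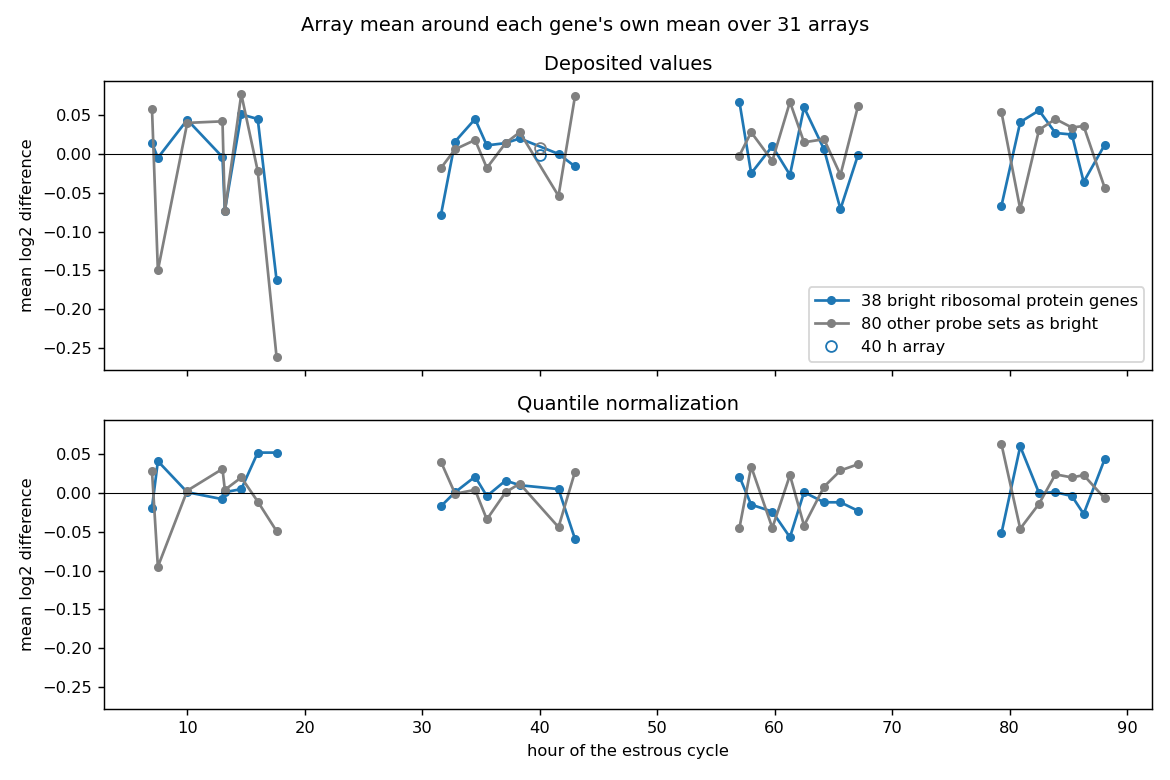
Mean log2 difference from each probe set's own mean, per array, against the hour of the cycle, for the 38 bright genes (blue) and 80 other probe sets as bright (grey), with arrays of a day joined and the 40 h array open, in the deposited values (top) and after quantile normalization (bottom). The array of 17.6 h lies at -0.16 for the bright genes in the deposited values and at 0.05 after quantile normalization.

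The array of 86.3 h stood apart in another way, since the bright genes moved in different directions on it. The SD between their differences from their own means was 0.096 there, against a next highest value of 0.070 at 16 h and a median of 0.057. This spread was 0.096 under both other scalings too. Their mean there was -0.04, with 23 of 38 below and 15 above, and 3 of them (Rpl24, Rpl14 and Rps3a) had their lowest array there. Rpl24, a large-subunit protein, stood at 11297 there, or -0.28 from its own mean, and Rpl14 at 7288, or -0.20. Rps24 followed at -0.18 with Rpl7 and Rps15a at -0.17 each. Rpsa, the small-subunit protein that also serves as a laminin receptor, stood at 10779 there, or 0.16, and Rpl7a at 0.09, Rpl18 at 0.09, Rpl37a at 0.08 and Rps15 at 0.08. The split did not run between the subunits, whose bright genes had means of -0.038 (large) and -0.030 (small) on this array. The log2 ratio of the 3′ to the 5′ control probe set of Gapdh, a sign of RNA quality, was 0.65 there. The next array had 0.34, and the median was 0.16. The same ratio for actin was 1.93 there and did not stand apart, with a median of 1.65 and a highest value of 2.10 at 7.5 h. The part of RNA quality in the result was not tested.

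**Figure D5:**
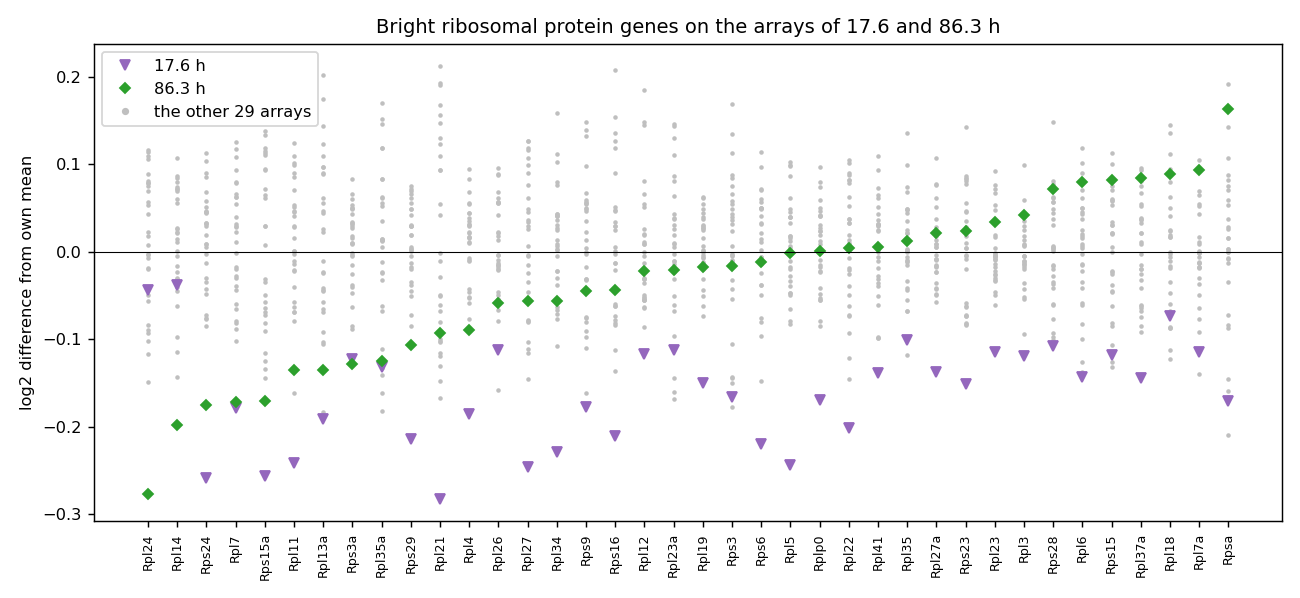
Log2 difference from the gene's own mean for the 38 bright genes on the arrays of 17.6 h (triangles), 86.3 h (diamonds) and the other 29 arrays (grey points), ordered by the value at 86.3 h. At 17.6 h all 38 lie below 0, and at 86.3 h they run from -0.28 (Rpl24) to 0.16 (Rpsa).

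On the array of 40 h the bright genes were unremarkable. The mean of the bright genes was -0.001, and 37 of the 38 lay within their range over the other arrays. The exception was Rps28 at 10815, below its lowest of 10880. Among the dim genes 7 of 8 lay within their range, and the exception was Rpl39 at 111, above its highest of 98.1. The mean of the dim genes was 0.21 at 40 h, near the upper end of its range from -0.22 to 0.25 over the other arrays. Rpl3l, the form of Rpl3 made in muscle, did not pass the filter. It ran from 7.18 to 172 over the 31 arrays and stood at 204 at 40 h, where the skeletal muscle markers had a mean of 2.90, above every other array.

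The dim genes varied more, with a median SD of 0.276 and 3 of the 8 below the median of all probe sets. Rps27l, a paralog of Rps27 that the tumour suppressor p53 induces, was the widest and spanned 3.76-fold. It ran from 36.1 over a median of 52.2 to 77.6 on day 1, from 22.4 over 45.4 to 80.1 on day 2, from 30.6 over 55.0 to 72.0 on day 3 and from 36.8 over 58.8 to 84.1 on day 4. The days overlapped, and its change over 10 h was -0.16 (SE 0.24, limma adjusted p = 0.834). Its lowest arrays were 37.1 and 31.6 h and its highest 82.5 h. Rps4y2, a copy of the small-subunit gene Rps4, ran from 48.0 at 64.2 h to 143 at 62.5 h, the array with the highest mean of the mitosis genes (3.15), whose part in it was not tested. Rpl7l1, a relative of Rpl7 that acts in ribosome assembly, ran from 634 to 842, and Rpl26l1 from 25.3 to 38.4, and the days overlapped. For day 3 minus day 2 the probe set used for Rpl7l1 gave -0.10 (SE 0.07). Its second probe set, with a mean log2 of 9.15, gave -0.23 (SE 0.08, limma unadjusted p = 0.0106, adjusted p = 0.240).

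Rps13, a core small-subunit protein, gave the only unadjusted p under 0.05 in any pair of days among the probe sets that represent the genes. Its dim probe set ran from 35.0 over a median of 44.4 to 54.5 on day 2 and from 23.1 over 33.6 to 47.3 on day 3. The ranges overlapped, and day 3 minus day 2 was -0.42 (SE 0.15, limma adjusted p = 0.219), in a comparison where 12.7% of all probe sets had an unadjusted p under 0.05. The brighter Rps13 probe set, which the platform also assigns to copies of the gene, gave 0.07 (SE 0.06, limma adjusted p = 0.618) for the same days. For Rpl28, a large-subunit protein, the dim probe set had a change over 10 h of 0.14 (SE 0.15) and the brighter one of several symbols 0.06 (SE 0.06). The second probe set of Rpl3, a dimmer one with probes that can match other transcripts, gave 0.33 for day 3 minus day 2 (SE 0.09, limma adjusted p = 0.100), where the brighter one gave -0.04 (SE 0.05). Of the 33 probe sets of several ribosomal symbols, 0 passed in either direction of the clock hour or in the F test over days. Among all probe sets 1.21% were higher and 0.75% lower along the clock hour, and 0.574% passed the F test. Counts of 0 of 33 do not set them apart from these shares.

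Lists of related genes held 40 for the mTOR pathway and growth control and 32 translation factors and related mRNAs. They also held 75 ribosome biogenesis factors and 73 mitochondrial ribosomal proteins. Of all these genes, 4 passed a test for the clock hour or for day 3 against day 1. Whether this is more than among all probe sets was not tested. Of 40 measured genes of the mTOR pathway and growth control, 2 passed with a rise along the clock hour and 0 with a fall, where 1.21% of all probe sets were higher and 0.75% lower. On day 3, 1 of the 40 was lower than on day 1, where 0.721% of all probe sets were lower and 0.403% higher. Ddit4, an inhibitor of mTOR complex 1 that stress and glucocorticoids induce, ran from 117 over a median of 179 to 346 before noon (n = 14) and from 179 over 372 to 542 after noon (n = 17). The ranges overlapped, and its change over 10 h was 1.44 (SE 0.19, limma adjusted p = 1.11e-05), and it passed under each of 47 alternatives. Eef2k, the kinase that halts elongation factor 2, ran from 155 over 230 to 324 before noon and from 181 over 327 to 422 after noon, a change of 0.71 (SE 0.15, limma adjusted p = 0.00524). It passed in 43 of 47 alternatives, and with the 4 tissue marker lists as covariates the change was 0.48 and the adjusted p = 0.189 from limma.

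Myc, a transcription factor that drives ribosomal genes, ran from 917 over a median of 1132 to 1498 on day 1 and from 567.8 over 850 to 1011 on day 3, a change of -0.48 (SE 0.12, limma adjusted p = 0.0476). It passed in 15 of 42 alternatives, and without the rat of 17.6 h the adjusted p was 0.125. Of 32 measured translation factors and related mRNAs, 0 passed for the clock hour. On day 3, 1 of them was higher than on day 1 (0.403% of all probe sets) and 0 were lower. That gene was Hnrnpa1, a splicing factor, which ran from 1446 over 1730 to 2202 on day 1 and from 1982 over 2842 to 3771 on day 3, a change of 0.63 (SE 0.12, limma adjusted p = 0.00638). Of 75 ribosome biogenesis factors and 73 mitochondrial ribosomal proteins, 0 passed for the clock hour, the F test over days or day 3 against day 1. Their array means were both highest at 62.5 h, at 0.25 and 0.30 on the log2 scale, where the bright ribosomal protein genes stood at 0.06. Larp1, which holds tract-bearing mRNAs, and Mtor itself did not pass, with intensities from 437 to 713 and from 143 to 187.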

How the data were processed

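Each of 32 rats gave mammary RNA for 1 array (Affymetrix Rat 230 2.0). The authors computed the deposited intensity values with GC-RMA (named GCRMA in the submitters' processing notes; its version was not given in the sources used here). It corrects background and normalizes arrays together, so small shared shifts may be removed or added. They are linear, from 2.22 to 37317, and log2 was taken here. The number of arrays limits the precision, and no scan batch was known. The labels name glands kept in a stabilizing solution, the study's methods flash-frozen tissue, and which was used was not settled.

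The 57 control probe sets were left out. limma fitted the cycle day and the clock hour centred at 12 on 21068 probe sets over 31 arrays, with Benjamini-Hochberg adjustment at 0.05. Method 1 used an order 2 spline, the study's knots and permutation vector, and 0.25. Bright means a mean log2 over 12. The members and gene lists were chosen with earlier results of these data known. Genes were named by the largest and smallest level, SD, change and rho, by the arrays that stood apart, as paralogs and, from other lists, past the threshold. Entrez identifiers of 44 members were in the GRCr8 table. Start sequences came from RefSeq, GRCr8, and in 69.3% of promoters the start is the gene's outermost base. Scripts were tested on simulated data. Alternatives covered filter, normalization, arrays, variance model, covariates, probe sets, days and spline. Software was limma 3.58.1 in R 4.3.3, and scipy 1.17.1, numpy 2.4.6 and pandas 2.3.3 in Python 3.11.15.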

Additional observations from a re-analysis of the deposited data

Results flagged for a closer look

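Among the arrays of 1 day, a single value lay far from the others of its day in 9 of 140 groups examined, made of 32 named genes and 3 array means over 4 days. The genes were named from these same data, among other things for a large SD, change or rho, and they share arrays. A chance rate therefore does not apply to this count. Several of the genes were named for their values at 17.6 or 86.3 h, so values apart on these arrays are no separate finding. Values are log2 differences from the gene's own mean over 31 arrays. At 17.6 h on day 1 this held for Rps24 at -0.26, Rpl5 at -0.24, Rpl27a at -0.14 and Rpl3 at -0.12, the array on which all 38 bright genes were low in the deposited values. The mean of the 46 genes was apart at 31.6 h on day 2, at -0.10, against -0.01 in the nearest rat. Rpl24 was apart at 86.3 h on day 4, at -0.28 against -0.02 in the nearest rat. Rpl7a stood at -0.14 at 65.6 h, Rpl3 at -0.094 at 79.3 h and Rpl37-ps2, the pseudogene, at 0.42 at 34.5 h.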

How the results depend on the processing

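The count of members that passed was 0 under every alternative run in limma: 47 for each direction of the clock hour, and 42 each for the cycle day, the pairs of days and the slope by day. The shares of all probe sets called under the alternatives are not given here. In the main limma fit they were at most 1.27%, so counts of 0 do not set the family apart. Method 1 called 1 member with quantile normalization (Rps16) and 0 to 1 when single rats were left out. The range of the array means of the 46 genes was 0.215 on the log2 scale, 0.155 with quantile normalization, 0.241 with median centring, 0.244 without the filter on low values, and 0.187 to 0.215 when single rats were left out. The median SD of the members, 0.075, ran from 0.067 with quantile normalization to 0.084 with median centring. Eef2k passed in 43 of 47 alternatives, Myc in 15 of 42 and Hnrnpa1 in 42 of 42. No paired analysis was possible because each array came from a different rat, killed at its own time point. With 1 rat per time point, a shift on 1 array cannot be told apart from a difference of that rat, and the intervals of the dim genes reach up to 36.7% lower and 37.4% higher over 10 h.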
